A study of Mus musculus with 22 samples.

Results

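Levels of 9 genes of the heat shock response were compared across a set of DUX constructs: the factor Hsf1 and the chaperone genes Hspa1a, Hspa1b, Hspa8, Hsph1, Dnajb1, Hsp90aa1, Hsp90ab1 and Hspb1. They were taken by name, 9 of the 55487 genes listed, and all 9 passed the filter on low values in both tables. Poly(A) RNA came from a mouse embryonic stem cell line of genotype Dux-/-, kept in 2iLIF medium, so that every group, controls included, lacks the endogenous Dux gene. Every line carried a doxycycline-inducible transgene tagged with mCherry, a red fluorescent protein, and was given 0.25 ug/mL doxycycline for 12 h after 24 h of recovery from plating. DUX is a double-homeodomain transcription factor of the 2-cell embryo. The groups compared were FL, which is full-length DUX, mCherry alone as the control, and the derivatives named C3+14, C1C3a, C1C3b, C1C3c, C1+14, C12345delt14, deltC12345+14 and deltC12345delt14. The labels do not spell these names out, and a further group, C3delt14, was not analysed here. Each group had 2 libraries, and no label says whether they came from separate cultures or how many clones a line stands for. So the p-values measure only the spread between these libraries, pooled over all groups of a table.

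In cells under stress, misfolded proteins draw HSP70 and HSP90 chaperones away from HSF1, which then forms trimers and binds heat shock elements in front of chaperone genes. HSP70 proteins bind and release unfolded clients with the help of J-domain partners such as DNAJB1 and of the HSP110 exchange factors. In early mouse development Hspa1a and Hspa1b are also known as early zygotic genes, transcribed without heat at genome activation, which is the stage that DUX is known for.

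Values are normalised reads, that is the reads of a gene over the size factor of the library. Differences are log2(value + 1) of a first group minus a second. A gene was called, written below as rose or fell, at a limma adjusted p under 0.05 (Benjamini-Hochberg over all genes tested) with at least a 2-fold difference. Library totals ran from 21059953 to 40448890 reads, and even the lowest member, Hspa1a, had at least 41 reads in each library. The mCherry control shares 1 table, the chimera table, with FL, C1+14, C3+14 and the C1C3 constructs a, b and c, and FL stands again with C12345delt14, deltC12345+14 and deltC12345delt14 in the deletion table. All 10 stem cell markers checked had reads in every group, and per library they summed to 109201 to 111250.1 normalised reads in mCherry, 49934 to 55855 in C1C3b and 58668 to 93951 in the other 5 constructs of the chimera table. The 3 neural markers summed to 2387 to 2639.5 in mCherry and to 325 to 567 in C1C3b, C1C3c and C1+14. The 3 endoderm markers summed to 29.7 to 35.2 in mCherry, 322 to 401 in C1C3b, 249.4 to 265 in C3+14 and 59.5 to 218 in the others. The part of these in the results was not tested. The 7 feeder fibroblast markers summed to 35.4 to 183 normalised reads per library in the chimera table. The libraries are of 2 kinds by the share of reads in 1653 genes present in many near-identical copies, 0.298% to 0.345% in C3+14 and mCherry against 1.67% to 2.15% in the other 5 groups of the chimera table. So only C3+14 can be set against mCherry within 1 kind of library. For the other constructs, kind and construct cannot be told apart in that contrast, nor in a contrast with C3+14.

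The genes that moved most were the inducible HSP70 pair, Hspa1a and Hspa1b. On the deposited scaling both rose over mCherry in FL, C3+14, C1C3a and C1C3b, most in C1C3a, and neither rose in C1C3c or C1+14. As a share of all reads these rises were smaller. The rise of Hspa1b in FL depends on the measure. It kept its sign with edgeR, DESeq2 and quantile normalisation, but as a share of all reads its FL and mCherry libraries overlapped. Hspb1, which codes for the small heat shock protein HSP27, rose in FL and C1C3a on the deposited scaling. The HSP90 genes, Hspa8, Hsph1, Dnajb1 and Hsf1 did not rise over mCherry in any construct.

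In counts, FL had 3 of 9 members higher than mCherry, beside 24.5% of all 21584 genes tested that were called higher. C3+14 had 2 higher, beside 29.6%. C1C3a had 3 higher, beside 27.4%, and C1C3b had 2 higher, beside 27.6%. C1+14 had 2 lower, Hsp90aa1 and Hspa1b, beside 5.95% of all genes called lower. In C1C3c limma called 0 members, beside 28.8% of all genes. There 6 of 9 had an unadjusted and also an adjusted p under 0.05, all short of 2-fold, and edgeR and DESeq2 also called 0. Without C1C3c replicate 1 limma called 2, Hsp90aa1 and Hsph1. In the 4 constructs with a rise, then, the share of members called was near that of all genes, and the count itself is no result about them. The C1+14 count was above its background, and its calls were lost without C1+14 replicate 1 (Hspa1b) or replicate 2 (Hsp90aa1). The members' median difference from mCherry was 0.74 for C1C3a, 0.54 for C3+14, 0.45 for FL and 0.08 for C1C3b, beside 0.12, 0.23, 0.09 and 0.15 over all genes. It was -0.55 for C1C3c and -0.60 for C1+14, beside 0.01 and 0.

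Hspa1a (ENSMUSG00000091971, chr17:34969190-34972156, minus strand, GRCm38) and Hspa1b (ENSMUSG00000090877, chr17:34956436-34959238, minus strand) code for the stress-inducible cytosolic HSP70. They lie side by side as near-identical copies. Because the results turn on this pair, the 250 bases before each start site are shown, with those of Hspb1, the other gene that rose. They are RefSeq sequences on GRCm38.p6, 5′ to 3′ on the gene's own strand, for Hspa1a chr17:34972157-34972406, Hspa1b chr17:34959239-34959488 (both minus strand) and Hspb1 chr5:135887669-135887918 (plus strand). Capitals mark the letters GAANNTTC, 2 heat shock units facing each other, which read the same on both strands.
Hspa1a: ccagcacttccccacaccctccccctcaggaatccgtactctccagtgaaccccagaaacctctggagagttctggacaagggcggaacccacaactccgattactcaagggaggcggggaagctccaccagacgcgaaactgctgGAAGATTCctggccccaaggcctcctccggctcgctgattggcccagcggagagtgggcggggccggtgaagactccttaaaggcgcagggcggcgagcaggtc
Hspa1b: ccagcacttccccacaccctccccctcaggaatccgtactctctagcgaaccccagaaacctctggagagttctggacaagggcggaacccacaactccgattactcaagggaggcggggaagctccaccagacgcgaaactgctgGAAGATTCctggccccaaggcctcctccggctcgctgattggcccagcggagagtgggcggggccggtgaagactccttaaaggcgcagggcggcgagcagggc
Hspb1: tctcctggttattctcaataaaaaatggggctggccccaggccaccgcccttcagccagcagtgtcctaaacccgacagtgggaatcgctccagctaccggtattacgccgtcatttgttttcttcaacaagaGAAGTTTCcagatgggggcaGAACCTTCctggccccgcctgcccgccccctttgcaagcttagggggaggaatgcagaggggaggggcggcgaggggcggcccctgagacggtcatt

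The Hspa1a and Hspa1b stretches differed at 3 of 250 bases, 98.8% identical. Counted from 1 at the 5′ end, with the Hspa1a base first, the substitutions were C44T, T47C and T249G. Each held GAAGATTC, starting 104 bases before the start site. Hspb1 held GAAGTTTC and GAACCTTC, starting 117 and 97 bases before its start. GAANNTTC was found in 7.86% of the 32851 promoter windows of the RefSeq table, each running from 250 bases before a start to 50 after it. The other arrangement, TTCNNGAA, was found in 8.52% of them and either of the 2 in 15.1%. Both windows of Hsph1 held both arrangements. Of the members' 7 windows, those of Dnajb1 held neither, and Hsf1, Hspa8, Hsp90aa1 and Hsp90ab1 were not in the table.

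Hspa1a had 58.7 and 70.3 normalised reads in the mCherry libraries. It had 197 and 196 in FL, 279.8 and 238 in C3+14, 179 and 297 in C1C3b, and 538 and 786 in C1C3a. C1C3c had 43.7 and 43.3, and C1+14 had 30.0 and 51.5. Every library of FL, C3+14, C1C3b and C1C3a was thus above both mCherry libraries, and every C1C3c and C1+14 library was below them.

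The rise of Hspa1a over mCherry was 10.3-fold in C1C3a (log2 difference 3.32, SE 0.31, adjusted p = 8.39e-07). It was 4.01-fold in C3+14 (1.99, adjusted p = 9.27e-05), which is of the same library kind as mCherry. It was 3.68-fold in C1C3b (1.83, adjusted p = 0.000211) and 3.05-fold in FL (1.60, adjusted p = 0.000565). The C1C3c difference was -0.55 (adjusted p = 0.166) and the C1+14 difference -0.70 (adjusted p = 0.106), neither of which passed.

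Hspa1b followed the same order at higher counts. It had 149 and 166 normalised reads in mCherry, 340.3 and 321 in FL, 347 and 485 in C1C3b, 524 and 528 in C3+14, and 1224 and 1539 in C1C3a. C1C3c had 109 and 87.2, and C1+14 had 61.4 and 96.1, again below both mCherry libraries. The rise was 8.78-fold in C1C3a (log2 difference 3.12, SE 0.24, adjusted p = 1.11e-07), 3.34-fold in C3+14, 2.65-fold in C1C3b and 2.10-fold in FL. In FL the call was close to its threshold: the difference of 1.07 (adjusted p = 0.00155) became 0.91 with edgeR and 0.99 without mCherry replicate 1, both short of 2-fold. As a share of all reads Hspa1b took 0.000718% and 0.000860% in FL, and 0.000724% and 0.000806% in mCherry, so by that measure the groups overlapped. In C1+14 Hspa1b fell 2.00-fold (difference -1.02, adjusted p = 0.00559), a call that did not hold with edgeR (-0.92), DESeq2 (-0.99) or without C1+14 replicate 1 (-0.70).

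From lowest to highest, both genes ran C1+14, C1C3c, mCherry, FL, C1C3b, C3+14, C1C3a. Between neighbours, only the steps from mCherry to FL and from C3+14 to C1C3a passed the test. The step from C3+14 to C1C3a was 2.56-fold for Hspa1a (adjusted p = 0.00821) and 2.63-fold for Hspa1b (adjusted p = 0.00119), beside 7.52% of all genes called higher in that comparison. The libraries of C3+14 and C1C3a differ in kind, so kind and construct cannot be told apart in this step. The Hspa1a step did not hold without C1C3a replicate 2, where it was 1.06, or without C3+14 replicate 2, where it was 1.21. FL, C1C3b and C3+14 did not differ from each other in these genes by a called amount.

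Of the 50-base stretches of the transcripts, 52.7% in Hspa1a and 59.5% in Hspa1b also occur in another gene, chiefly the other copy, so reads may have been split between them. Their sum rose 9.21-fold in C1C3a, 3.54-fold in C3+14, 2.95-fold in C1C3b and 2.38-fold in FL over mCherry. Gm20481 lies over Hspa1a on the opposite strand, and whether counting used strand is not given in the sources used here. The sign of the pair's difference from mCherry in FL, C3+14, C1C3a and C1C3b was the same with edgeR, DESeq2 and quantile normalisation. By share of all reads, every library of C3+14, C1C3b and C1C3a was also above both of mCherry for each gene. FL was above it for Hspa1a alone, at 0.000417% and 0.000526% beside 0.000285% and 0.000342%, a smaller ratio than on the deposited scaling. The ratios by share were also smaller in C3+14, C1C3b and C1C3a. Hspa1a took 0.000793% and 0.000667% in C3+14, and 0.00149% and 0.00188% in C1C3a. Hspa1b took 0.00149% and 0.00148% in C3+14 and 0.00340% and 0.00368% in C1C3a, beside 0.000724% and 0.000806% in mCherry.

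Within 1 library kind, C1+14 can serve as the reference for FL, C1C3a, C1C3b and C1C3c. C1C3a had 5 of 9 members higher than C1+14, beside 23.4% of all genes called higher. Hspa1a rose 16.3-fold in it (log2 difference 4.01, adjusted p = 1.85e-07) and Hspa1b 17.5-fold. C1C3b had 2 members higher, Hspa1a by 5.84-fold and Hspa1b by 5.29-fold, beside 17.9%. FL had 5 higher, beside 21.5%, of which edgeR called 2, with Hspa1a 4.84-fold and Hspa1b 4.20-fold over C1+14. The other calls in C1C3a and FL were Hspa8, Hsp90aa1 and Hspb1, and each of these turned sign under quantile normalisation, which sets the same distribution of values in every library. In C1C3c limma called 0 members, beside 7.83% of all genes. There 2 had an unadjusted p under 0.05, of which 1 also had an adjusted p under 0.05 but fell short of 2-fold. For this pair edgeR and DESeq2 called 0.

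The constructs in which the pair rose over mCherry on the deposited scaling, FL, C3+14, C1C3a and C1C3b, also had the highest levels of 2-cell genes. Within these constructs the level of the pair did not run parallel to that of the 2-cell genes. The summed level of 6 markers of the 2-cell-like state (Zscan4c, Zscan4d, Zfp352, Usp17lc, Tcstv1 and Tcstv3) was between 725112 and 1355144 in FL, and between 724971 and 792252 in C3+14. It was 323957 to 476214 in C1C3a and 13384 to 18930.1 in C1C3b. It was 823 to 897 in C1C3c, 4.96 to 10.96 in C1+14 and under 1 in mCherry, where 5 of the 6 markers were at 0. C1C3a therefore had more Hspa1a and less of this sum than FL and C3+14, with no overlap of libraries in either measure. C3+14 is of the other kind of library than C1C3a, so against it kind and construct cannot be told apart. In these bulk samples, fewer cells in which a gene is on and less RNA per cell cannot be told apart.

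**Figure D1:**
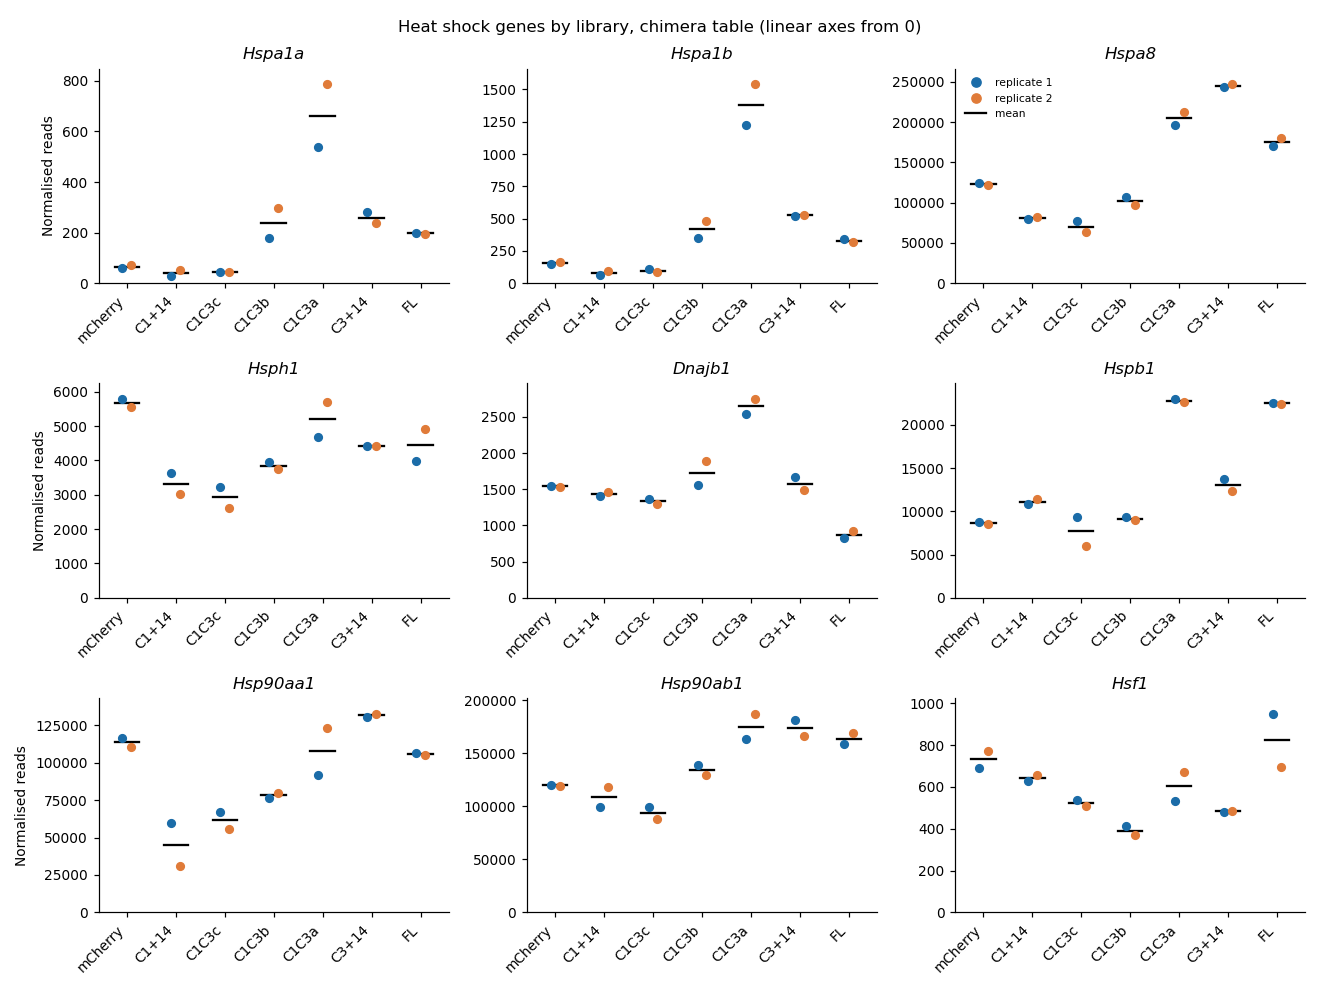
Normalised reads (linear axes from 0) of the 9 heat shock genes in each library of the chimera table, by construct, with a bar at the mean of the 2 replicates. Hspa1a and Hspa1b were highest in both C1C3a libraries, Hspb1 was between 22430.4 and 22990.5 in FL and C1C3a, and Dnajb1 was lowest in FL.

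Hspa8 (ENSMUSG00000015656, chr9:40800984-40810087, plus strand) codes for the constitutive HSP70, HSC70, and was far more abundant than the inducible pair. Per kilobase of exon, its mCherry level was 28555 normalised reads, beside 21.8 for Hspa1a and 56.1 for Hspa1b. Its libraries had 124205 and 121422 normalised reads in mCherry, 170324 and 180273 in FL, 196703 and 213006 in C1C3a, and 243931 and 246794 in C3+14. They had 107430.1 and 97723 in C1C3b, 79892 and 82280.0 in C1+14, and 77149 and 63566 in C1C3c. So FL, C1C3a and C3+14 stood above the control and the other 3 below it, with no library overlapping those of mCherry.

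The C3+14 level was 2.00 times that of mCherry, but its log2 difference rounded up to 1.00 and fell just short of the threshold, so it was not called by limma; DESeq2 called it. The differences were 0.51 in FL (adjusted p = 0.003) and 0.74 in C1C3a (adjusted p = 0.00019). Hspa8 rose 2.53-fold from C1+14 to C1C3a (1.34, adjusted p = 1.16e-06). All these signs rest on the scaling: after quantile normalisation the difference was -1.75 in FL, -1.05 in C3+14, -1.30 in C1C3a against mCherry, and -1.09 in C1C3a against C1+14. Hspa8 took 0.591% and 0.603% of all reads in mCherry, 0.691% in both C3+14 libraries, 0.509% and 0.546% in C1C3a, and 0.359% and 0.482% in FL. By share of reads, then, FL and C1C3a were below mCherry. Of the reads of Hspa8 and the genes that share its sequence, 38.6% to 42.2% stood in the other genes in the chimera table.

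Hsph1 (ENSMUSG00000029657, chr5:149614287-149636376, minus strand), an HSP110 nucleotide exchange factor for HSP70, had its highest mean in mCherry, at 5787 and 5559.6 normalised reads, which the C1C3a libraries, at 4683 and 5705, overlapped. The lowest on this scaling were C1C3c, at 3238 and 2619.9, and C1+14, at 3634 and 3017. As a share of all reads every library of FL, C3+14 and C1C3a was below those of C1C3c and C1+14. FL had 0.00842% and 0.0131%, beside 0.0177% and 0.0148% in C1C3c. The Hsph1 difference from mCherry of -0.96 in C1C3c (adjusted p = 0.000175) and -0.78 in C1+14 (adjusted p = 0.00153) stayed short of 2-fold. Without C1C3c replicate 1 the former was -1.11 and was called.

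Dnajb1 (ENSMUSG00000005483, chr8:83608193-83612653, plus strand) codes for the J-domain protein HSP40, and is itself a target of HSF1. FL had the lowest libraries, 821 and 918 normalised reads, and C1C3a the highest, 2540.4 and 2745. mCherry had 1549.9 and 1527, and the libraries of C3+14, C1C3b, C1C3c and C1+14 lay between 1294 and 1884. In FL, where Hspa1a and Hspa1b rose, Dnajb1 was 1.77 times lower than in mCherry (difference -0.83, adjusted p = 7.68e-05), short of the 2-fold threshold. In C1C3a it was 1.72 times higher (0.78, adjusted p = 0.000117), also short of it. That sign rests on the scaling, since as a share of all reads Dnajb1 took 0.00705% and 0.00656% in C1C3a, below the 0.00753% and 0.00743% of mCherry. The FL share, 0.00173% and 0.00246%, was below both. C1C3a against FL gave 3 members higher, Dnajb1 by 3.04-fold (1.60, adjusted p = 3.39e-06), Hspa1a by 3.36-fold and Hspa1b by 4.18-fold, beside 11.0% of all genes called higher. Those 3 calls held in each of the alternatives that kept the gene. C3+14 against FL gave 0 members called by limma, edgeR or DESeq2, beside 26.3% of all genes. In limma 5 were at an unadjusted and also an adjusted p under 0.05, all short of 2-fold.

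Hspb1 (ENSMUSG00000004951, chr5:135887919-135889563, plus strand) codes for a small heat shock protein that holds unfolded proteins and binds actin. It had 8789 and 8571 normalised reads in mCherry, 22542 and 22430.4 in FL, and 22990.5 and 22623 in C1C3a. C3+14 had 13744 and 12330.3, C1+14 10859 and 11426, C1C3b 9303 and 9012, and C1C3c 9349 and 6005. On this scaling the FL and C1C3a libraries stood apart from all others. As a share of all reads they did not. Hspb1 took 0.0476% and 0.0600% in FL, 0.0638% and 0.0541% in C1C3a, and 0.0618% and 0.0643% in C1+14. The mCherry share, 0.0427% and 0.0417%, was below these. Hspb1 rose 2.59-fold in FL (difference 1.37, adjusted p = 6.63e-06) and 2.63-fold in C1C3a (1.39, adjusted p = 5.19e-06). After quantile normalisation these were 0.47 and 0.55, of the same sign and short of 2-fold. It rose 2.05-fold from C1+14 to C1C3a (1.03), a call lost with edgeR (0.82) and, by a small margin (1.00), without C1+14 replicate 1, and its sign turned under quantile normalisation (-0.19). Of its 50-base stretches 45.2% also occur in another gene, yet the genes that share them took at most 1.65% of the reads of the group.

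Hsp90aa1 (ENSMUSG00000021270, chr12:110690605-110702728, minus strand) and Hsp90ab1 (ENSMUSG00000023944, chr17:45567775-45573271, minus strand) code for the inducible and the constitutive cytosolic HSP90. Hsp90aa1 had 116364 and 110723 normalised reads in mCherry and 59723 and 30776 in C1+14, whose 2 libraries differed most. It fell 2.51-fold in C1+14 (difference -1.40, adjusted p = 0.000737), but without C1+14 replicate 2 the difference was -0.93 and not called. In C1C3c it had 67072 and 55872 (-0.89, adjusted p = 0.0076). FL had 106718 and 105064, C3+14 130648 and 132648, C1C3a 91691 and 123167, and C1C3b 76664 and 79454, none of which passed against mCherry. As a share of all reads Hsp90aa1 was below both mCherry libraries in every library of every construct. It took 0.565% and 0.539% in mCherry, 0.225% and 0.281% in FL, and 0.255% and 0.294% in C1C3a. The C1+14 share was 0.340% and 0.173%. On the deposited scaling the gene also differed between constructs. It rose 2.37-fold from C1+14 to C1C3a (1.31, adjusted p = 0.000366), which was 0.83 and not called without C1+14 replicate 2 and turned to -0.62 under quantile normalisation. From FL to C1+14 it fell 2.34-fold (-1.30), again -0.83 and not called without C1+14 replicate 2, and 0.68 under quantile normalisation. Of its 50-base stretches 46.5% also occur in another gene. In the chimera table the genes that share them took 14.2% to 14.4% of the reads of the group in C3+14 and mCherry. In the other kind of library they took 17.3% to 18.9%.

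Hsp90ab1 ran from 88377 normalised reads in a C1C3c library to 187523 in a C1C3a library. mCherry had 120182 and 119647. On the deposited scaling it was above both in every FL, C3+14, C1C3a and C1C3b library and below both in every C1C3c and C1+14 library. As a share of all reads FL (0.334% and 0.453%), C3+14 (0.515% and 0.465%) and C1C3a (0.453% and 0.448%) were below mCherry (0.584% and 0.582%). By share C1C3b stayed above mCherry and C1C3c below it, while C1+14 (0.565% and 0.664%) lay on both sides. On the deposited scaling the differences from mCherry were 0.45 in FL (adjusted p = 0.00962), 0.54 in C3+14 (adjusted p = 0.00312) and 0.55 in C1C3a (adjusted p = 0.00282), all short of 2-fold. Under quantile normalisation they were -1.60, -1.18 and -1.23. This scaling shifted the median of all genes by up to 0.48 (log2). Of all called genes, the share that were higher than mCherry was 55.5% in FL and became 41.2%. For C3+14 it was 62.6% and became 42.4%, for C1C3a 59.0% and then 41.0%, and for C1C3b 61.7% and then 47.8%. By value, Hspa8 held rank 4 of all genes in both mCherry libraries and ranks 12 to 29 in those of FL, C3+14, C1C3a and C1C3b.

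Hsf1 (ENSMUSG00000022556, chr15:76477422-76501913, plus strand), the transcription factor of the pathway, was called in none of the 6 comparisons with mCherry. It had 691 and 772 normalised reads in mCherry, 950.3 and 695 in FL, 481 and 486 in C3+14, and 411 and 372 in C1C3b. C1C3a had 535 and 669.6, C1C3c 535 and 509, and C1+14 629 and 657. The FL libraries overlapped those of mCherry, and all libraries of the other 5 constructs were lower. The largest difference from mCherry was -0.90 in C1C3b (adjusted p = 0.000464), where Hspa1a and Hspa1b rose. This order rests on the scaling. As a share of all reads Hsf1 was lowest in C3+14, at 0.00136% in both libraries, beside 0.00186% and 0.00170% in C1C3b. By that measure FL, at 0.00201% and 0.00186%, was below mCherry, at 0.00336% and 0.00376%. C1+14, at 0.00358% and 0.00370%, overlapped mCherry. C1C3b against FL gave 2 members lower, Hsf1 and Hspb1, beside 19.7% of all genes. Hsf1 fell 2.10-fold there (-1.05, adjusted p = 0.000135), a call lost with edgeR (-0.95), without FL replicate 1 (-0.83) and without C1C3b replicate 2 (-0.98).

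The remaining pairs of the chimera table gave these counts. C1C3b against C1C3a had 3 lower (Hspa1a, Hspa1b and Hspb1), beside 17.3% of all genes called lower. C1C3c against C1C3a had 4 lower, beside 22.2%, with Hspa1a 15.2-fold and Hspa1b 14.1-fold lower, and with Hspb1 and Hspa8, of which Hspa8 turned sign under quantile normalisation (0.77). Without C1C3a replicate 1, 7 members were called in it. C1C3c against C1C3b had 2 lower, Hspa1a by 5.47-fold and Hspa1b by 4.25-fold, beside 7.66%. C1C3c against FL had 4 lower, beside 22.8%, and C1C3c and C1+14 against C3+14 had 4 lower each, beside 21.8% and 25.9%. C1C3b against C3+14 had 1 lower, Hspa8, beside 16.5%, which was 0.16 under quantile normalisation. These comparisons share libraries and are not independent of each other.

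**Figure D2:**
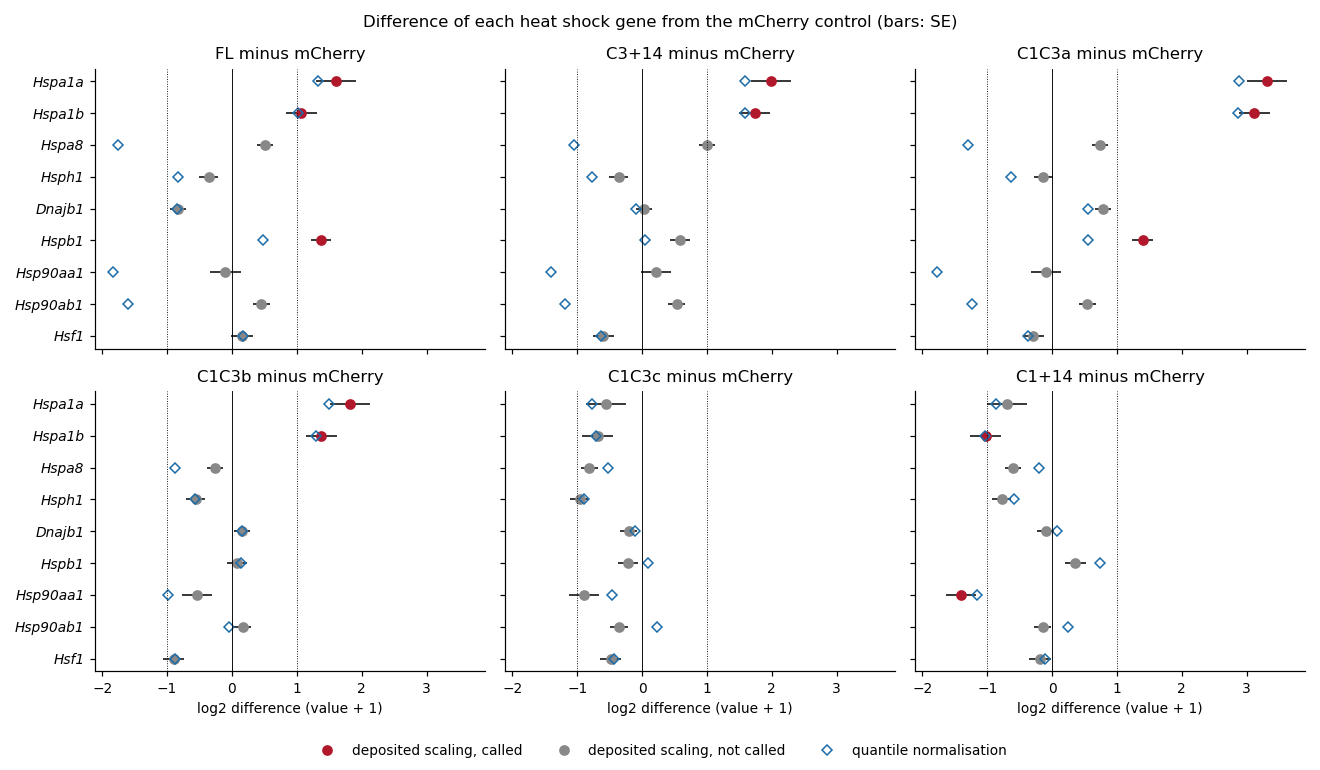
Log2 difference of each heat shock gene from mCherry, 1 panel per construct, with bars at the SE (filled points, red where called, deposited scaling; open diamonds, quantile normalisation; dotted lines, 2-fold). Hspa1a and Hspa1b lie between 1.07 and 3.32 in FL, C3+14, C1C3a and C1C3b, and between 1.03 and 2.88 under quantile normalisation, while Hspa8, Hsp90aa1 and Hsp90ab1 lie below 0 under quantile normalisation in FL, C3+14 and C1C3a.

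The genes that work with these chaperones, 81 in 7 lists, were described beside them. Of these, 77 passed the filter in the chimera table. Against mCherry 7 were higher and 7 lower in FL, where 44.2% of all genes were called in either direction. C3+14 had 13 higher and 5 lower, beside 47.3%, and C1C3a had 6 and 6, beside 46.4%. C1C3b had 12 and 9, beside 44.7%, C1C3c 9 and 7, beside 28.8%, and C1+14 3 and 3, beside 18.3%. These shares were all below those of all genes. The median of the 77 differences was 0.12 for FL, 0.11 for C3+14, 0.10 for C1C3a, -0.09 for C1C3b, -0.27 for C1C3c and -0.22 for C1+14.

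Among 19 HSP70 partners tested, Dnajb4, a cytosolic J-domain protein, rose in 5 of 6 constructs. It had 129 and 105 normalised reads in mCherry and 1786 and 1598 in C1C3b, a rise of 14.5-fold (log2 difference 3.85, adjusted p = 6.77e-09). It rose 6.84-fold in C1C3c, 5.71-fold in C3+14, 2.52-fold in FL and 2.47-fold in C1C3a. Hspa2, an HSP70 best known from the male germ line, rose 5.20-fold in C1C3b, 5.03-fold in C3+14, 3.91-fold in C1C3a and 2.69-fold in C1C3c. Neither followed the order of Hspa1a, whose highest construct was C1C3a. Bag3 and Bag5, co-chaperones that help HSP70 release its client, fell in FL: Bag5 was at 91.3 and 158 beside 367 and 377, and Bag3 at 217 and 495 beside 763 and 797. Without FL replicate 1 the Bag3 difference of -1.25 was -0.65. Dnajb5 fell 5.09-fold in FL and 2.05-fold in C3+14. In C1+14, Bag2 rose 3.77-fold and Dnajc7 fell 2.04-fold.

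Of 8 small heat shock proteins other than Hspb1, 1 was higher and 3 lower than mCherry in FL, C3+14, C1C3a and C1C3c, 1 and 4 in C1C3b, and 1 and 1 in C1+14. So 4 of 8 were called in FL, C3+14 and C1C3a, near the 44.2%, 47.3% and 46.4% of all genes given above, and C1C3c had 4 of 8 beside 28.8%. The list's median was between -1.20 and -0.48. Hspb8, which works with Bag3 in autophagy of misfolded proteins, had 1829.7 and 1711 normalised reads in mCherry. It was at 279.9 and 304 in FL and at 92.1 and 94.8 in C1C3b, where it fell 18.9-fold (difference -4.23, adjusted p = 5.37e-08). Cryab, the alpha-B crystallin, fell 5.93-fold in C1C3c, 3.35-fold in C1C3b, 3.23-fold in C3+14, 2.87-fold in C1+14 and 2.73-fold in C1C3a. Hspb2 fell in C3+14, C1C3a, C1C3b and C1C3c, with 63.3 and 72.1 in mCherry and no more than 26.8 in a library of these. The gene that rose was Hspb3, with 0 reads in both mCherry libraries. Set against a floor of 3 reads per library, it was at least 21.6-fold higher in C1C3a, where it had 63.1 and 35.4 normalised reads.

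Of the other heat shock factors, Hsf2 rose in C3+14 (2.48-fold), C1C3b and C1C3c (2.11-fold), from 901 and 851 normalised reads in mCherry. Hsf3 rose in the same constructs and had 57.0 and 49.8 in C1C3b beside 3.30 and 2.57 in mCherry. In FL, C1C3a and C1+14 limma called 0 of the 4 genes tested of this list, with 2, 3 and 3 at an unadjusted p under 0.05; DESeq2 called 1 in FL and in C1+14, and edgeR 1 in C1+14. Of 14 HSP90 partners, limma called 2 lower in C1C3b and 1 lower in C1C3c and 0 in the other 4 constructs, where 4 to 7 had an unadjusted p under 0.05 and edgeR and DESeq2 called 0.

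The TRiC subunits, which form the ring that folds actin and tubulin, were described as a list of 8. In FL 3 were called higher, beside 24.5% of all genes, Cct7 at 28744 and 23723 normalised reads beside 11959.7 and 11922 in mCherry (2.20-fold), Cct2 (2.10-fold) and Cct4 (2.08-fold), and in C3+14 5 were, beside 29.6%. In C1C3a limma and edgeR called 0 and DESeq2 1, although all 8 had an unadjusted and also an adjusted limma p under 0.05, short of 2-fold. The list's median was 0.85 in FL, 1.03 in C3+14 and 0.86 in C1C3a, and -0.18 in C1+14 and C1C3c. These values rest on the scaling: after quantile normalisation the medians were -0.21, 0.05 and -0.17, with 0 called, and edgeR called 0 in FL and 2 in C3+14.

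**Figure D3:**
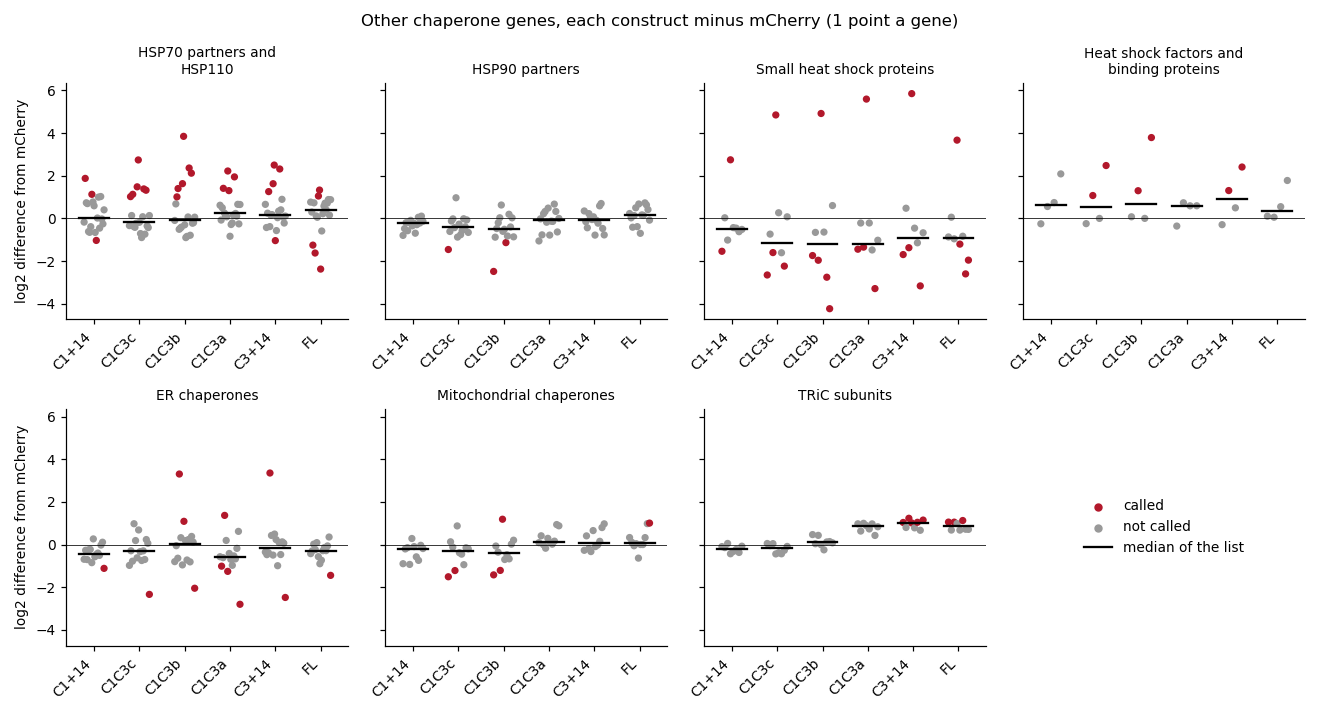
Log2 difference from mCherry of every tested gene of the 7 chaperone lists, by construct (1 point a gene, red where called; bars, the list's median). Small heat shock proteins lie mostly below 0 apart from Hspb3, whose mCherry level is 0 so that its points depend on the pseudocount, and the TRiC points in C1C3a lie between 0.43 and 1.00, none of them called.

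In the deletion table FL was the reference. Hspa1a had 243 and 246 normalised reads in FL and 250.3 and 198 in C12345delt14. It had 102 and 126 in deltC12345+14 and 104 and 137 in deltC12345delt14, so that every library of the 2 deltC12345 constructs was below every other. Hspa1b gave the same picture, with 419 and 402 in FL, 519 and 463 in C12345delt14, 171 and 164 in deltC12345+14, and 191 and 244 in deltC12345delt14. Hspa8 had 209485 and 225495 in FL, 201014 and 169554 in C12345delt14, 77841 and 95787 in deltC12345+14, and 85632 and 84298 in deltC12345delt14.

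Against FL, 3 of 9 members were called in deltC12345+14, all lower, beside 38.4% of the 19833 genes tested called in either direction. Hspa1a fell 2.14-fold (difference -1.10, adjusted p = 0.0102), Hspa1b 2.45-fold (-1.28, adjusted p = 0.00174) and Hspa8 2.51-fold (-1.33, adjusted p = 0.000974). In deltC12345delt14 2 were called, both lower, beside 39.1%: Hspa1a by 2.03-fold (-1.03, adjusted p = 0.0134) and Hspa8 by 2.56-fold (-1.36, adjusted p = 0.000824). Hspa1b was 1.88 times lower there (-0.92, adjusted p = 0.00701). The Hspa1a calls were close to the threshold and were lost with edgeR in both (-0.98 and -0.92), and without deltC12345+14 replicate 1 (-0.95) or deltC12345delt14 replicate 1 (-0.83). Hspa8 turned sign under quantile normalisation, to 1.07 and 1.30. By share of all reads the pair was not lower in these constructs. Hspa1a took 0.000417% and 0.000526% in FL, 0.000445% and 0.000572% in deltC12345+14, and 0.000465% and 0.000572% in deltC12345delt14. Hspa1b took 0.000718% and 0.000860% in FL, 0.000744% and 0.000749% in deltC12345+14, and 0.000853% and 0.00102% in deltC12345delt14, so each overlapped FL. The falls of the pair thus depend on how the libraries are scaled. They were not seen by share of reads, while edgeR, with its own scaling, gave the -0.98 and -0.92 above for Hspa1a. The share of Hspa8 was 0.338% and 0.436% in deltC12345+14, 0.353% and 0.382% in deltC12345delt14, and 0.359% and 0.482% in FL, with overlap.

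C12345delt14 against FL gave 0 members called by limma, edgeR or DESeq2, beside 0.958% of all genes, with 2 members at an unadjusted p under 0.05. The member that differed most was Dnajb1, at 1772 and 1903 normalised reads beside 1009 and 1148 in FL (0.77, adjusted p = 0.0485). Dnajb1 was as high in deltC12345+14, at 1884 and 1888, and in deltC12345delt14, at 1927 and 2041, so that FL stood below all 3 derivatives, as it stood below all groups of the chimera table. Both tables hold the same 2 FL libraries, so this is not a second observation.

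C12345delt14 had 2 members higher than deltC12345+14, beside 11.5% of all genes called higher, and 2 higher than deltC12345delt14, beside 12.6%. They were Hspa1b, 2.93-fold and 2.25-fold, and Hspa8, 2.13-fold and 2.18-fold, the latter gene turning to -0.75 and -0.98 under quantile normalisation. Without C12345delt14 replicate 1, 1 member was called in the comparison with deltC12345+14 and 0 in the other; without deltC12345+14 replicate 1, 1 was called in the former. Between deltC12345+14 and deltC12345delt14 limma called 0 members, beside 0.0% of all genes; 0 members and 543 of all genes had an unadjusted p under 0.05, edgeR called 0 genes, and DESeq2 called 4, none of them a member. The Hspa1a difference between these 2 was -0.07 (SE 0.27).

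Hspb1 was at 27725 and 28057 in FL, 23071 and 18749 in C12345delt14, 13040.4 and 15052 in deltC12345+14, and 15092 and 14107 in deltC12345delt14. Its difference from FL was -0.99 in deltC12345+14 (adjusted p = 0.00136) and -0.93 in deltC12345delt14 (adjusted p = 0.00163), just short of 2-fold. By share of all reads Hspb1 overlapped FL in both constructs. It took 0.0567% and 0.0686% in deltC12345+14, 0.0673% and 0.0590% in deltC12345delt14, and 0.0476% and 0.0600% in FL. Hsp90ab1 was between 189265 and 230609 in FL and C12345delt14 and between 125517 and 148352 in the other 2, with differences of -0.69 and -0.55 from FL that became 1.80 and 1.78 under quantile normalisation. For Hsp90aa1, deltC12345delt14 replicate 2, at 64516, stood apart from the other 7 libraries, which were between 110285 and 139813. Hsph1 was between 3944 and 6135 and Hsf1 between 559.7 and 1169. In this table the 2 kinds of library occur within deltC12345+14 and within deltC12345delt14, once each. There the ratio of one kind to the other was 0.581 to 1.31 for the 9 genes, with 0.815 and 1.31 for Hspa1a. The 6 markers of the 2-cell-like state summed to between 346034 and 1666713 in FL and C12345delt14, and to at most 3.28 in the others.

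**Figure D4:**
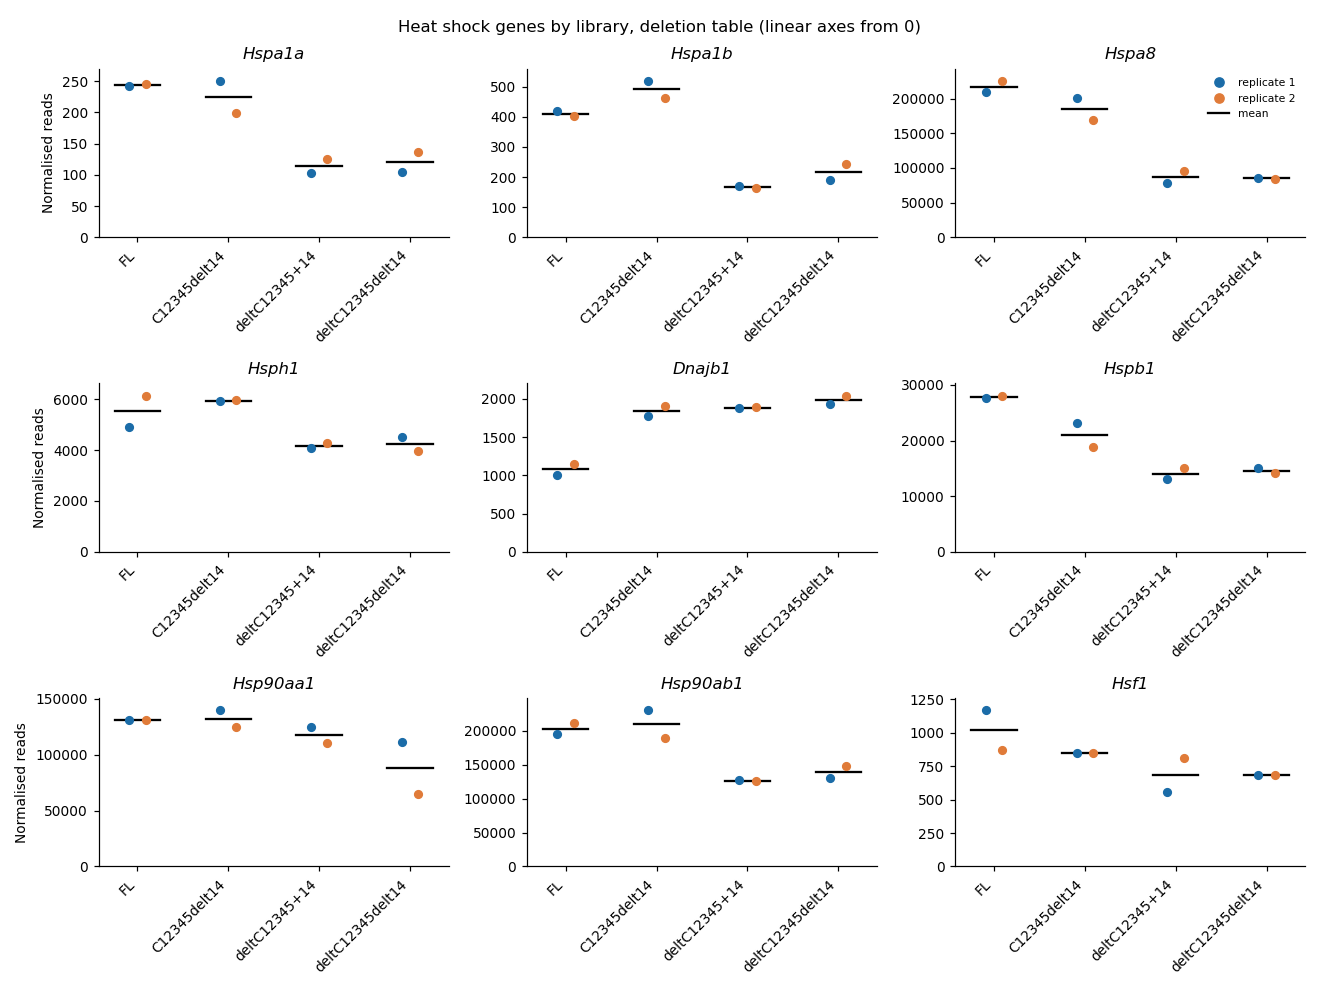
Normalised reads (linear axes from 0) of the 9 heat shock genes in each library of the deletion table, with a bar at the mean of the 2 replicates. Hspa1a, Hspa1b, Hspa8 and Hsp90ab1 were lower in all deltC12345+14 and deltC12345delt14 libraries than in FL and C12345delt14, and Dnajb1 was lowest in FL.

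Genes with a pattern over the 14 chimera libraries most like that of a member were listed by Pearson's r of log2 values, as a description, since the libraries share constructs and scaling. For Hspa1a they were Med26 (0.976), Pabpc4 (0.969) and Sfpq (0.963), and 159 genes reached 0.9. Med26, a Mediator subunit, had a mean of 2152 normalised reads in C1C3a, 868 in FL and 374 in mCherry. For Hspa8 they were Gm15459 (0.994) and Gm8355 (0.987), which share its sequence, and Psmc2 (0.980), with 894 genes at 0.9 or more. For Hsp90aa1 they were Npm1 (0.970), Ncl (0.968) and Rbm26 (0.965), and for Hsf1 Calcoco1 (0.984), Nr1h2 (0.963) and Tmem259 (0.962).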

How the data were processed

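Poly(A) RNA of 20 libraries, 2 per group, was read from 2 tables of 55487 genes, with FL in both. The deposited values are a signal, a gene's reads over a size factor of the library. Trimming with Trim Galore 0.5.0, FastQC, DESeq2 and the mm10 build are named per the submitters' processing notes; the aligner, the counter, its use of strand and its treatment of multiply mapping reads are not given in the sources used here. Whole reads could be recovered for 100% of the values above 0 (tolerance 0.001 reads). In reads, 0 FL values differed between the tables. Each table was fitted on its own, over all its groups, with limma 3.58.1 (R 4.3.3, lmFit and eBayes with trend) on log2(value + 1) of genes that reached 10 in 2 or more libraries, and p-values were adjusted by the Benjamini-Hochberg method over all genes tested, 21584 (chimera table) and 19833 (deletion table). Fold changes on this scale understate the change of low genes; folds in the text are ratios of group means. With 2 libraries against 2 an exact permutation test cannot give a p below 0.333, so none was used. The fit takes 1 spread per gene for all groups of a table, but replicates differed more in some groups. In the chimera table the chi-square per gene between replicates was 89.1 in FL and 42.3 in C1+14, beside 6.67 in C3+14 and 3.55 in mCherry. The pooled spread may thus be too small for FL and C1+14. The limma procedure was tested on simulated counts with equal numbers of known rises and falls in a small part of the genes. The simulation held no kinds of library and no shift in scaling, so it cannot show how the results depend on these.

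The recovered reads were also tested with edgeR 4.0.16 and DESeq2 1.42.0. The other alternatives were pseudocounts of 0.1 and 8, no filter, quantile normalisation, the 2 groups compared alone, each library left out, the replicate number as a block, the kind of library as a covariate (deletion table), genes with at least 20% of their 50-base stretches shared with other genes left out, and Hspa1a and Hspa1b summed. A crossed block was chosen after seeing the data. All 9 members are named. From the 7 lists, up to 5 genes called higher and 5 called lower per comparison with mCherry are named, those with the largest differences among genes with a mean of at least 50 normalised reads in the higher group and no overlap. The members and lists were chosen with earlier results of these data known. Gene models were GENCODE annotation on GRCm38 and promoter sequences RefSeq.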

Additional observations from a re-analysis of the deposited data

How the results depend on the processing

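Among differences called in the fit reported, in the alternative or in both, those of the 9 genes and of 2 named list genes that turned sign did so under quantile normalisation. For Hspa8 the values were -1.75 (FL against mCherry), -1.05 (C3+14 against mCherry), -1.30 (C1C3a against mCherry), -1.09 (C1C3a against C1+14), 1.23 (C1C3c against FL), 1.55 (C1+14 against FL), 0.16, 0.52 and 0.84 (C1C3b, C1C3c and C1+14 against C3+14), 0.77 (C1C3c against C1C3a), 1.07 and 1.30 (deltC12345+14 and deltC12345delt14 against FL), and -0.98 and -0.75 (C12345delt14 against deltC12345delt14 and deltC12345+14). For Hsp90aa1 they were -1.41 (C3+14 against mCherry), -0.62 (C1C3a against C1+14), 1.37 and 0.68 (C1C3c and C1+14 against FL), 0.94 and 0.25 (the same against C3+14), 1.31 (C1C3c against C1C3a), 2.05 and 1.42 (deltC12345+14 and deltC12345delt14 against FL), and -1.10 and -1.72 (C12345delt14 against deltC12345delt14 and deltC12345+14). For Hsp90ab1 they were -1.60, -1.18 and -1.23 (FL, C3+14 and C1C3a against mCherry), -1.48 (C1C3a against C1+14), 1.55, 1.82 and 1.85 (C1C3b, C1C3c and C1+14 against FL), 1.14, 1.41 and 1.43 (the same against C3+14), 1.19 and 1.45 (C1C3b and C1C3c against C1C3a), 1.80 and 1.78 (deltC12345+14 and deltC12345delt14 against FL), and -1.13 and -1.15 (C12345delt14 against deltC12345delt14 and deltC12345+14). For Hspb1 they were -0.19 (C1C3a against C1+14) and 0.27 (C1+14 against FL), and in FL against mCherry -0.10 for Cct2 and -0.059 for Cct4. The cause was not tested.

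Counts of called members that moved by over 1.5 times, and smaller moves with edgeR and DESeq2, were as follows. Quantile normalisation gave 5 in FL, C3+14 and C1C3a against mCherry, 6 in deltC12345+14 and 4 in deltC12345delt14 against FL. Leaving out genes with shared sequence removed 5 of the 9 members, Hspa1a and Hspa1b among them, and so gave 0 in FL, C3+14, C1C3a, C1C3b and C1+14 against mCherry, C1C3a and C1C3b against C1+14, both deltC12345 constructs against FL and C12345delt14 against both, and 1 in C1C3a and in C1C3b against FL. It gave 0 in each other comparison that had a call. Summing Hspa1a and Hspa1b gave 1 in C3+14, C1C3b and C1+14 against mCherry, in C1C3b against C1+14, in C1C3a against C3+14, in C1C3c against C1C3b and in deltC12345delt14 against FL. For C1+14 against mCherry edgeR, DESeq2 and a pseudocount of 8 gave 1, and the 2 groups alone gave 0, as they did for C1C3c against C1C3b (2 in the fit reported). For C1+14 against FL, where limma and DESeq2 called 5, edgeR called 2. With edgeR the count was also 2 in FL against mCherry and in deltC12345+14 against FL, 3 in C1C3c against C3+14 and 4 in C1C3a against C1+14. DESeq2 gave 3 in C3+14 against mCherry. For deltC12345delt14 against FL edgeR and a pseudocount of 8 gave 1. Leaving out 1 library at a time gave 0 to 2 for C1C3c and 1 to 2 for C1+14 against mCherry, 4 to 7 for C1C3c against C1C3a, 1 to 3 for C1C3b against FL, 1 to 2 for C1C3a against C3+14, and 0 to 3 and 1 to 3 for C12345delt14 against deltC12345delt14 and deltC12345+14. With the replicate number as a block the count stayed at 3 in FL against mCherry, and no other member count moved. Same-numbered libraries deviated together with r between -0.10 and 0.05 over 21 pairs of groups in the chimera table and between -0.57 and 0.14 over 6 in the deletion table, so the numbers were not taken as pairs. The crossed pairing of deltC12345+14 with deltC12345delt14, chosen after seeing the data, called 0 members, as did the fit reported.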

Other observations

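Serpinh1, the collagen chaperone of the endoplasmic reticulum, fell in all 6 constructs of the chimera table. It had 1268 and 1234 normalised reads in mCherry, 182 and 177 in C1C3a (log2 difference -2.80) and 508 and 657 in C1+14 (-1.11). Dnajb9, a J-domain partner of the reticulum's HSP70, rose from 346 and 320.0 in mCherry to 3304 and 3528 in C3+14 (3.36, adjusted p = 5.56e-09), to 3515 and 3104 in C1C3b (3.31) and to 981 and 756 in C1C3a (1.37). Hsp90b1, the HSP90 of the reticulum, fell in C1C3a (-1.25). Of the 14 reticulum genes tested, 1 was lower and 0 higher in FL, where 44.2% of all genes were called in either direction, and 3 were lower and 1 higher in C1C3a, beside 46.4%. Under quantile normalisation 6 were lower in FL and 8 in C1C3a.

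Among 10 mitochondrial chaperones and proteases, Trap1, the mitochondrial HSP90, rose 2.03-fold in FL, and edgeR called 0 of the list there. Clpp, the subunit of a matrix protease, fell in C1C3b (-1.42) and C1C3c (-1.51).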
